A study of Mus musculus with 21 samples.

Results

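The mesenchymal transcription factors *Twist1*, *Twist2*, *Prrx1*, *Prrx2*, *Tbx15*, *Tbx18*, *Tcf21*, *Six2* and *Meox2* were followed across 21 RNA-seq libraries of mouse embryonic fibroblasts (MEFs). These 9 genes were chosen by symbol from a table of 24454 genes, and all 9 were found. The 21 libraries fall into 7 groups of 3. Rtel1f/f MEFs, which carry floxed alleles of the helicase gene *Rtel1*, were infected with a control adenovirus (Rtel1f/f Ad-GFP), with a Cre adenovirus that deletes the floxed gene (Rtel1f/f Ad-Cre), or with Ad-GFP followed by 10 µM TMPyP4, a porphyrin that binds and stabilizes G-quadruplex (G4) DNA, for the last 48 h. Rtel1f/f MEFs transduced with RTEL1 C1252A/C1255A, a mutant protein with alanine in place of cysteine at both positions (RTEL1 CA below), were infected with Ad-GFP or Ad-Cre. A separate line, Trf1f/f, carries floxed alleles of the shelterin gene *Terf1* and was infected with Ad-GFP or Ad-Cre. RNA was collected 96 h after infection in the Rtel1f/f cells, and the labels give no time for the Trf1f/f cells. All 7 groups therefore share adenoviral infection and the floxed state of 1 gene, and RTEL1 CA cells also carry a vector that the Rtel1f/f control lacks. The labels call the libraries of a group biological replicates, but nothing says that they came from separate embryos or cultures, so p-values measure the spread between these samples, which may be technical.

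These factors mark connective tissue lineages of the embryo. TWIST1 and TWIST2 are basic helix-loop-helix proteins that pair with E proteins and bind E-boxes, and they keep mesenchymal cells in an undifferentiated state. PRRX1 and PRRX2 are paired-type homeobox proteins of limb and craniofacial mesenchyme, TBX15 and TBX18 are closely related T-box proteins of limb, body wall and urogenital mesenchyme, and TCF21, SIX2 and MEOX2 are found in the mesenchyme of kidney, heart, face or somite-derived tissues. Fibroblasts in culture keep part of the code of the place they came from, so MEFs usually express some of these genes and lack others.

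Total counts per library were between 32069888 and 51938593 (median 43013208). The targeted genes followed the labels. *Rtel1* had 59.1 to 66.2 CPM (read counts relative to library size after TMM scaling) in Rtel1f/f Ad-GFP, 26.8 to 31.9 CPM in Rtel1f/f Ad-Cre and 253 to 338 CPM in RTEL1 CA libraries, where reads of the vector and of the floxed gene cannot be told apart. *Terf1* had 27.9 to 30.3 CPM in Trf1f/f Ad-GFP and 5, 2 and 1 counts in Trf1f/f Ad-Cre. The Rtel1f/f Ad-GFP libraries stood apart from the other 12 Rtel1f/f libraries in the summed level of 10 fibroblast markers, a sum carried by the abundant collagen genes *Col1a1* and *Col1a2*. The sum was 12930.6 to 13819.9 CPM in Rtel1f/f Ad-GFP, 4179 to 6537 in Rtel1f/f Ad-Cre, 6263 to 9337 with TMPyP4, 4036 to 7893 in RTEL1 CA and 14157 to 20557 in Trf1f/f libraries. The markers did not all move one way. After *Rtel1* loss 6 of the 10 fell and 2 rose (adjusted p of at most 0.01), against 21% and 22.0% of all genes tested. Those that rose were *Dcn* (1.47, adjusted p = 8.46e-09) and *Thy1* (2.40, adjusted p = 0.00909 by edgeR, from a mean of 0.0426 to 0.230 CPM). Against RTEL1 CA Ad-GFP, at the same threshold, 2 of the 10 were higher and 2 lower, where 7.76% of all genes were called in either direction. Of the 8 that fell or rose, 3 changed direction there. *Dcn* was at 1.24 (adjusted p = 3.79e-07) and *Thy1* turned to -0.11 (adjusted p = 0.947 by edgeR) against that control. No fibroblast marker was at 0 in any group, while some markers of muscle (*Myod1*, *Myog*) and blood (*Adgre1*, *Tyrobp*, *Hbb-bs*) were at 0 in every library of at least 6 of the 7 groups. Other markers of these lists were counted, led by *Des* for muscle and by *Cd68* and *Csf1r* for blood in each of the 7 groups. *Csf1r* rose after *Rtel1* loss (1.60, adjusted p = 5.62e-05) and was at 1.00 against RTEL1 CA Ad-GFP (adjusted p = 0.0121 by edgeR). Summed endothelial markers stayed at or below 4.70 CPM and epithelial markers at or below 9.92 CPM. Summed blood markers stayed at or below 6.62 CPM and muscle markers at or below 0.719 CPM. Summed neural and glial markers, led by *Nes*, were 247 to 350 CPM in Rtel1f/f Ad-GFP, 345 to 519 CPM in the other Rtel1f/f libraries and 151 to 198 CPM in Trf1f/f libraries. Summed mesothelial markers, led by *Msln*, were 7.19 to 10.95 CPM in Rtel1f/f Ad-GFP and 25.2 to 85.0 CPM in the other 12 Rtel1f/f libraries. Results after *Rtel1* loss and TMPyP4 are therefore also given against RTEL1 CA Ad-GFP. The part of this separation, and of the marker levels, in the members' differences was not tested, and in bulk RNA fewer cells of a type and less RNA per cell cannot be told apart.

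The promoters were examined first because TMPyP4 acts on G4 DNA. Of the 9 members, 8 had an entry in a RefSeq-based table of promoters (GRCm38.p6, 250 bases before to 50 after the start), and *Tbx15* had none. A G4 pattern was taken as 4 runs of at least 3 G with 1 to 7 bases between runs, on either strand (runs of C on the coding strand). The bases between runs could themselves be G, so a long unbroken run of G also counted, as in *Twist2*. This holds for the members and for all promoters alike. The pattern was present in 4 of these 8 promoters, on the coding strand of *Twist1*, *Twist2* and *Meox2* and on the template strand of *Prrx1*. Of all 32851 promoters in the table, 10.5% held the pattern on the coding strand, 9.35% on the template strand and 18.6% on either. *Prrx2*, *Tbx18*, *Tcf21* and *Six2* held none. The stretches of the 3 expressed members with a match are shown 5′ to 3′ along the coding strand, with 25 bases on each side and the matched bases in capitals.
Twist1: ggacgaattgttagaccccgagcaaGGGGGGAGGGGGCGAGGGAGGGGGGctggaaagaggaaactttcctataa
Twist2: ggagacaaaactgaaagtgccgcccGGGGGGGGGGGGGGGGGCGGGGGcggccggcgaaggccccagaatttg
Prrx1: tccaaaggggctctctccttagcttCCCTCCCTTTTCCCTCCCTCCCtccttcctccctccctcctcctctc
The *Twist1* stretch lies at chr12:33957475-33957549 on the plus strand and its match runs from 171 to 147 bases before the start. The *Twist2* stretch lies at chr1:91801304-91801376 on the plus strand, with the match from 132 to 110 bases before the start and a single unbroken run of G making up most of it. The *Prrx1* stretch lies at chr1:163313729-163313800 on the minus strand, and its match, which is C-rich on the coding strand, runs from 125 to 104 bases before the start used in the promoter table, 163313650. That start lies 1495 bases inside the RefSeq span of the gene, whose outermost *Prrx1* start is 163315145. The E-box CANNTG, the letters that TWIST proteins and their E protein partners bind, was searched in the same windows (it reads the same on both strands). It was present in 2 of the 8 promoters, *Tbx18* and *Meox2*, and in 72.3% of all promoters. A match is a string of letters in the reference and not a measured structure or binding site.

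**Figure D1:**
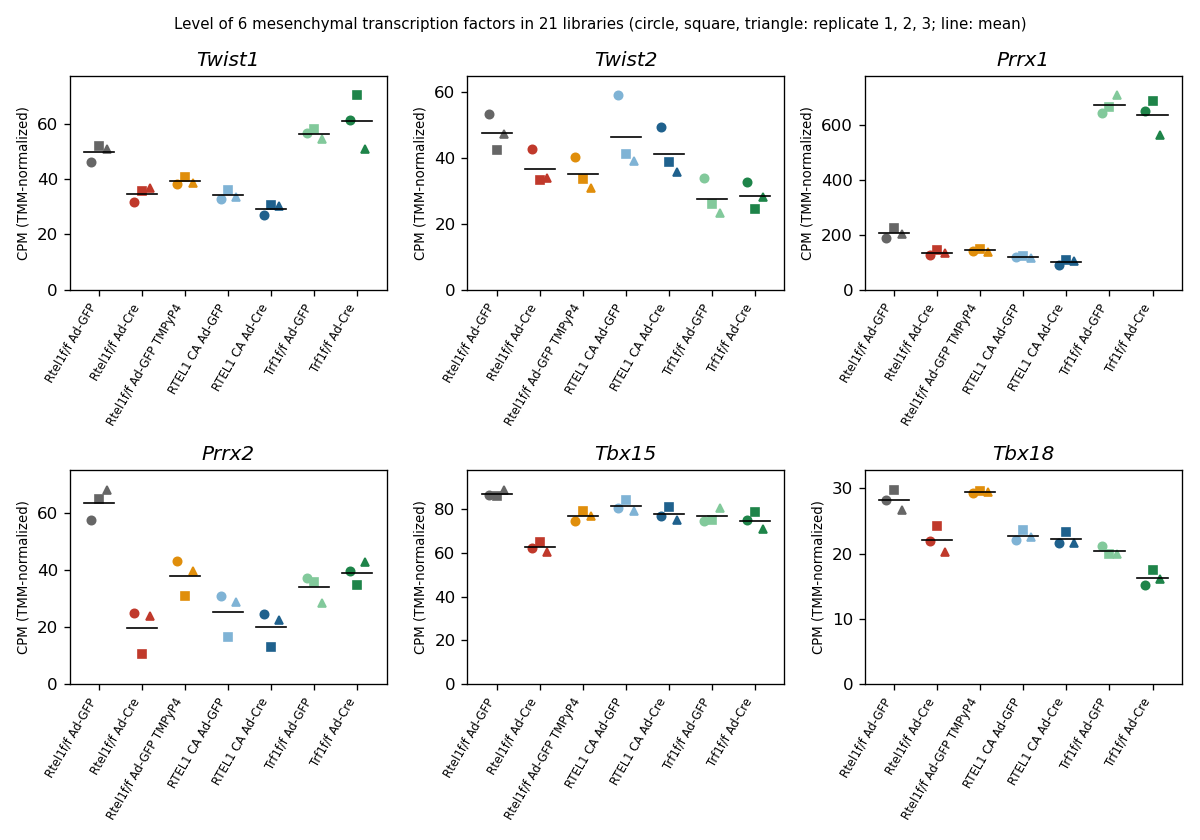
Level of the 6 members that were counted in every library, in CPM normalized by TMM (vertical axis, from 0), in the 7 groups (horizontal axis). Circles, squares and triangles are replicates 1, 2 and 3, and the line is the group mean; *Prrx1* is more than 3-fold higher in Trf1f/f than in Rtel1f/f Ad-GFP libraries, and *Prrx2* is lowest in replicate 2 of Rtel1f/f Ad-Cre and both RTEL1 CA groups.

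The 9 members split into 6 that were counted in every library and 3 that were at or near 0. *Tcf21* (chromosome 10), which marks epicardial, lung and kidney mesenchyme, had 0 counts in all 21 libraries. The limit that a count of 0 allows, 3 counts summed over the 3 libraries of a group, was 0.0209 CPM in Rtel1f/f Ad-GFP and at most 0.0261 CPM in any group. *Six2* (chromosome 17), which maintains kidney progenitors, and *Meox2* (chromosome 12), a homeobox gene of somites and vessels, had 0 counts in all 15 Rtel1f/f libraries. In Trf1f/f libraries *Six2* had 13, 17 and 9 counts with Ad-GFP and 19, 24 and 13 counts with Ad-Cre. Summed over 3 libraries this gave 0.307 CPM (exact Poisson 95% interval 0.218 to 0.420) with Ad-GFP and 0.442 CPM (0.334 to 0.575) with Ad-Cre. *Meox2* had 2, 3 and 8 counts with Ad-GFP, or 0.102 CPM (0.0545 to 0.175), and 3, 2 and 1 counts with Ad-Cre, or 0.0474 CPM (0.0174 to 0.103). These intervals cover counting error only. Both genes were thus seen in the Trf1f/f line at low counts, and *Meox2* was too low to be tested.

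Levels can be compared between genes only per length, which the deposited TPM values (transcript abundance, scaled by length) allow. In Rtel1f/f Ad-GFP cells *Prrx2* led with 132 ± 11.6 TPM (SD, n = 3), followed by *Prrx1* with 90.0 ± 10.0, *Twist2* with 81.0 ± 8.06, *Twist1* with 67.7 ± 5.20, *Tbx15* with 51.1 ± 1.096 and *Tbx18* with 12.5 ± 1.05 TPM. In this order *Prrx1* and *Twist2* overlapped between libraries, and the other neighbours did not. In Rtel1f/f Ad-Cre cells the order by TPM was different, with *Twist2* at 52.7 ± 7.26 and *Prrx1* at 50.01 ± 5.76, which overlapped, then *Twist1* at 40.0 ± 3.40, *Prrx2* at 34.4 ± 13.1 and *Tbx15* at 31.1 ± 2.77, whose neighbours also overlapped, and *Tbx18* last at 8.31 ± 1.20 TPM. *Prrx2* thus went from the leading member to the range of *Twist1* and *Tbx15*. In both RTEL1 CA groups *Twist2* led without overlap, with 66.6 ± 16.7 TPM (Ad-GFP) and 59.2 ± 12.01 TPM (Ad-Cre). In Trf1f/f cells *Prrx1* led without overlap, with 284 ± 16.2 TPM (Ad-GFP) and 264 ± 22.9 TPM (Ad-Cre). The TPM ratio of *Prrx1* to *Prrx2* within a library was 0.631 to 0.728 in Rtel1f/f Ad-GFP, 1.08 to 2.93 in Rtel1f/f Ad-Cre and 3.60 to 5.12 in Trf1f/f Ad-GFP. The ratio of *Twist1* to *Twist2* was below 1 in every Rtel1f/f library and between 1.33 and 2.27 in the Trf1f/f libraries.

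Loss of *Rtel1* was examined by comparing Rtel1f/f Ad-Cre with Rtel1f/f Ad-GFP. All 6 expressed members had lower means in Ad-Cre, and 5 of them fell (adjusted p of at most 0.01, edgeR quasi-likelihood test with Benjamini-Hochberg adjustment over the 13719 genes tested, called below). This has to be read against 43.0% of all genes called and 21% called as lower in this comparison. The median log2 fold change of the 6 members was -0.50, and that of all genes tested was -0.03. The libraries of the 5 called members did not overlap between the groups, which was also so, with lower Ad-Cre libraries, for 32.1% of all genes tested. Of the 3 low members only *Six2* passed the filter on low counts, through the Trf1f/f libraries alone, and it was at 0 in both groups compared here.

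*Prrx2*, on chromosome 2 of GRCm38 (30845064 to 30881251, plus strand), had 57.6, 65.0 and 68.2 CPM in the Ad-GFP libraries and 24.9, 10.6 and 23.9 CPM in the Ad-Cre libraries. Every Ad-Cre library was below every Ad-GFP library, and replicate 2 of Ad-Cre was the lowest of all 21. The log2 fold change was -1.68 (SE 0.296, adjusted p = 0.000141 by edgeR), or 0.311-fold, and single libraries left out moved it to between -1.88 and -1.40. Its paralogue *Prrx1* (chromosome 1, 163245119 to 163315145, minus strand) had 189, 225 and 204 CPM with Ad-GFP and 128, 146 and 133 CPM with Ad-Cre. The groups were apart by more than their spread, with a log2 fold change of -0.61 (SE 0.0852, adjusted p = 9.87e-06 by edgeR), or 0.656-fold.

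*Twist1* (chromosome 12, 33957671 to 33959831, plus strand) had 46.3, 51.7 and 51.0 CPM with Ad-GFP and 31.7, 35.6 and 36.6 CPM with Ad-Cre, a log2 fold change of -0.52 (SE 0.0939, adjusted p = 0.000141 by edgeR). *Twist2* (chromosome 1, 91801461 to 91848034, plus strand) had 53.2, 42.2 and 47.2 CPM with Ad-GFP and 42.6, 33.3 and 33.8 CPM with Ad-Cre. Replicate 1 of Ad-Cre lay above replicate 2 of Ad-GFP, so the groups overlapped, and the log2 fold change of -0.38 (SE 0.1802, 95% interval -0.77 to 0.01) was not called (adjusted p = 0.0832 by edgeR). The interval still includes the change of *Twist1*.

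*Tbx15* (chromosome 3, 99240348 to 99354260, plus strand) had the smallest spread of the 6. It had 86.3, 86.2 and 88.9 CPM with Ad-GFP and 62.2, 65.1 and 60.4 CPM with Ad-Cre, a log2 fold change of -0.48 (SE 0.0538, adjusted p = 8.12e-07 by edgeR). *Tbx18* (chromosome 9, 87702800 to 87731260, minus strand) had 28.2, 29.8 and 26.7 CPM with Ad-GFP and 22.0, 24.2 and 20.2 CPM with Ad-Cre. Its groups did not overlap, and its log2 fold change was -0.35 (SE 0.0724, adjusted p = 0.000465 by edgeR), but the call was lost without Ad-Cre replicate 3 (-0.28, adjusted p = 0.0149) or Ad-GFP replicate 2 (-0.29, adjusted p = 0.0160), and adjusted p was 7.29e-05 at the lowest and 0.833 at the highest in any fit by edgeR or DESeq2. The counting used the strand of reads, so transcripts annotated on the other strand of *Twist2*, *Prrx1*, *Tbx15* and *Tbx18* would be counted apart, while reads shared with the noncoding genes on the same strand of *Twist2* and *Prrx1* may be split.

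**Figure D2:**
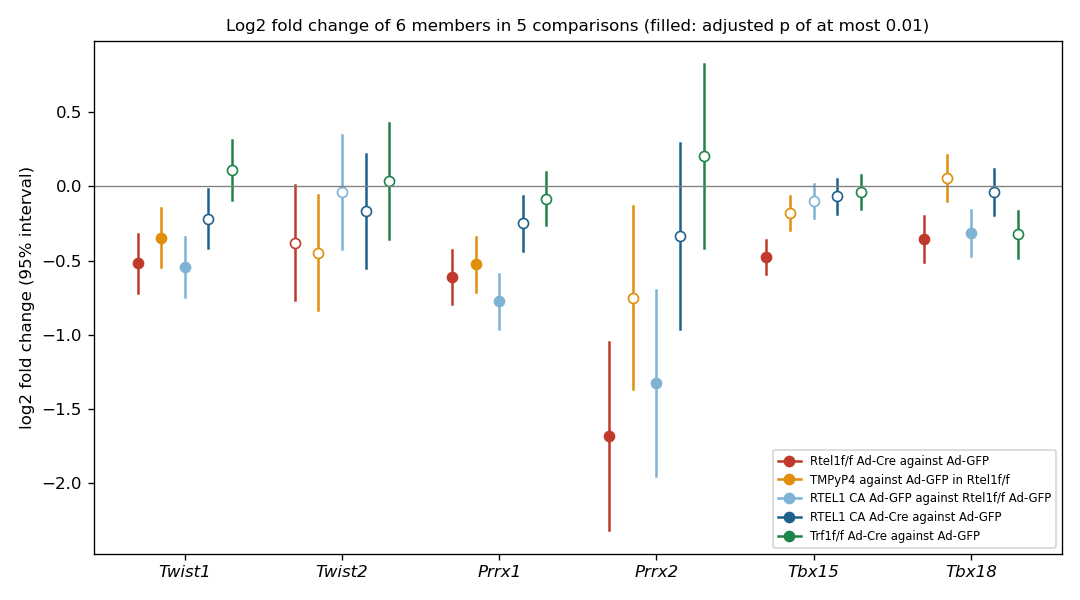
Log2 fold change (vertical axis) with its 95% interval for the 6 expressed members (horizontal axis) in 5 comparisons, coloured as in the legend; filled points were called. The red points (Rtel1f/f Ad-Cre against Ad-GFP) run from -1.68 for *Prrx2* to -0.35 for *Tbx18*, the pale blue points (RTEL1 CA Ad-GFP against Rtel1f/f Ad-GFP) are called for 4 of the 6, and no dark blue or green point, which stand for Ad-Cre in the other lines, is filled.

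TMPyP4 treatment was compared with the same Rtel1f/f Ad-GFP libraries, so this comparison and the previous one are not independent. *Prrx1* and *Twist1* fell, which is 2 of 6 members, against 30.0% of all genes called and 13.4% called as lower. *Prrx1* had 142, 150 and 138 CPM with TMPyP4, all below the 189 to 225 CPM of the control, a log2 fold change of -0.53 (SE 0.0851, adjusted p = 8.97e-05 by edgeR). *Twist1* had 38.0, 40.6 and 38.7 CPM with TMPyP4, all below the control, a log2 fold change of -0.34 (SE 0.0937, adjusted p = 0.00647 by edgeR). This call was lost without Ad-GFP replicate 2 or 3 or any of the TMPyP4 libraries, with adjusted p between 0.0139 and 0.0397 by edgeR (range over all fits from 0.00139 to 0.970).

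*Prrx2* had 43.1, 30.8 and 39.5 CPM with TMPyP4. These were all below the control, but the log2 fold change of -0.75 (SE 0.288) was not called (adjusted p = 0.0453 by edgeR). *Twist2* had 40.4, 33.5 and 31.0 CPM (log2 fold change -0.45, SE 0.1805, adjusted p = 0.0552 by edgeR) and *Tbx15* had 74.4, 79.1 and 77.0 CPM (log2 fold change -0.18, SE 0.0537, adjusted p = 0.0112 by edgeR), and neither was called although the libraries did not overlap with the control. In total, 5 of the 6 members lay below the control without overlap, as did 28.5% of all genes tested. *Tbx18* had 29.3, 29.6 and 29.3 CPM with TMPyP4, within the 26.7 to 29.8 CPM of the control, and its log2 fold change was 0.06 with a 95% interval of -0.10 to 0.21.

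Rtel1f/f Ad-Cre was also set directly against TMPyP4, where 15.2% of genes were called and 9.09% as lower. *Tbx15* and *Tbx18*, the related T-box genes, were lower after *Rtel1* loss, by log2 fold changes of -0.30 (SE 0.0538, adjusted p = 0.000489) and -0.41 (SE 0.0726, adjusted p = 0.000383 by edgeR). The highest Ad-Cre library of *Tbx18*, 24.2 CPM, was below the lowest TMPyP4 library, 29.3 CPM. Both calls were lost without Ad-Cre replicate 3, with adjusted p of 0.0320 and 0.0205 by edgeR (ranges over all fits from 0.000171 to 0.0320 and from 5.67e-05 to 0.0270), and 0 members were called when these 6 libraries alone were fitted. *Prrx2*, with a log2 fold change of -0.93 (SE 0.293), was not called (adjusted p = 0.0269), but replicate numbers pair the libraries of these groups, and with the replicate as a block it was called at -0.97 (adjusted p = 0.00490 by edgeR). *Twist1* (-0.17, 95% interval -0.38 to 0.03), *Twist2* (0.07, -0.32 to 0.45) and *Prrx1* (-0.08, -0.26 to 0.10) were not called.

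RTEL1 CA Ad-GFP cells were compared with Rtel1f/f Ad-GFP cells, in which neither group was given Cre or TMPyP4. In RTEL1 CA 4 of the 6 expressed members were lower, against 44.7% of all genes called and 22.1% called as lower. *Prrx2* had 30.9, 16.6 and 28.6 CPM (log2 fold change -1.32, SE 0.292, adjusted p = 0.00102) and *Prrx1* had 121, 125 and 116 CPM (log2 fold change -0.77, SE 0.0854, adjusted p = 6.19e-07 by edgeR). *Twist1* had 32.8, 36.0 and 33.3 CPM (log2 fold change -0.54, SE 0.0939, adjusted p = 8.52e-05 by edgeR). *Tbx18* had 22.1, 23.6 and 22.5 CPM (log2 fold change -0.31, SE 0.0724, adjusted p = 0.00123 by edgeR), a call lost without RTEL1 CA Ad-GFP replicate 1 or 3 or Rtel1f/f Ad-GFP replicate 2 (adjusted p between 0.0207 and 0.0381 by edgeR, range over all fits from 0.000228 to 0.0398). *Tbx15*, with 80.6, 84.1 and 79.4 CPM, was not called (log2 fold change -0.10, 95% interval -0.21 to 0.02). *Twist2*, with 58.9, 41.0 and 38.9 CPM, overlapped the control (log2 fold change -0.04, 95% interval -0.42 to 0.35).

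The Rtel1f/f Ad-Cre libraries were therefore also compared with RTEL1 CA Ad-GFP as the control, where 7.76% of genes were called. *Tbx15* alone among the 6 expressed members was called, at -0.38 (SE 0.0538, adjusted p = 7.71e-05 by edgeR), with every Ad-Cre library (60.4 to 65.1 CPM) below every control library (79.4 to 84.1 CPM). *Prrx2* was at -0.36 (95% interval -0.98 to 0.27), *Twist2* at -0.34 (-0.73 to 0.05), *Prrx1* at 0.17 (-0.02 to 0.35), *Twist1* at 0.03 (-0.18 to 0.23) and *Tbx18* at -0.04 (-0.19 to 0.12). Pairing by replicate number was not checked for comparisons with this control, which were fitted without a block. Their intervals therefore include any spread that same-numbered libraries share. With the same control 17.0% of genes were called for TMPyP4, and *Tbx18* was the member called, as higher (0.37, SE 0.0725, adjusted p = 0.000845 by edgeR). *Prrx1* and *Twist1*, which were lower with TMPyP4 against Rtel1f/f Ad-GFP, were at 0.25 (adjusted p = 0.0367 by edgeR) and 0.20 (adjusted p = 0.127 by edgeR) here. *Twist1* and *Prrx1* were thus called as lower after either treatment only against Rtel1f/f Ad-GFP. Against RTEL1 CA Ad-GFP their values were above 0 but not called, so no opposite direction was established. RTEL1 CA cells also differ from Rtel1f/f cells by the vector, and the vector and the control state cannot be told apart.

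**Figure D3:**
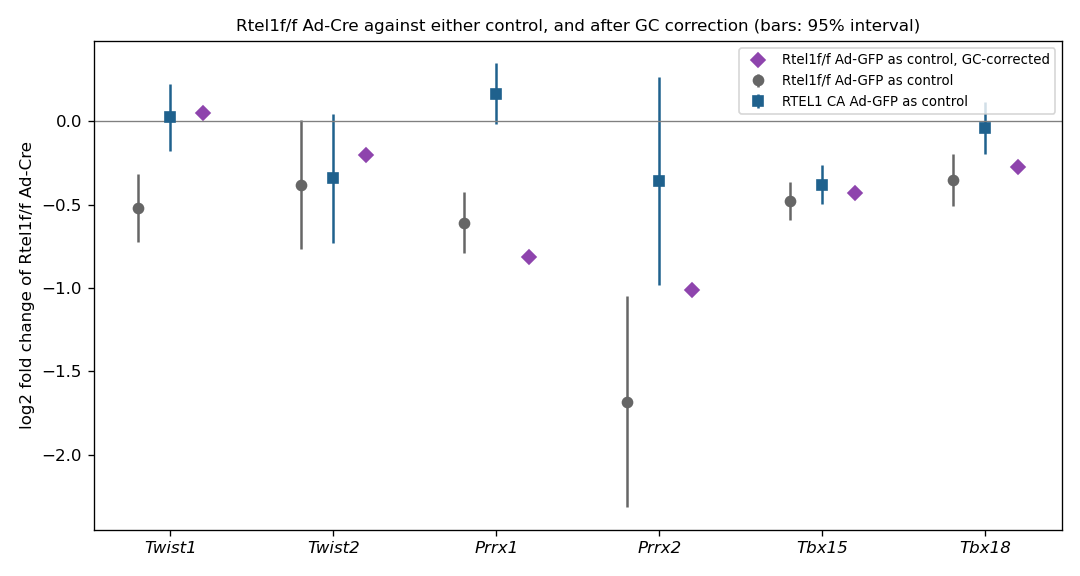
Log2 fold change of Rtel1f/f Ad-Cre libraries (vertical axis) for the 6 expressed members (horizontal axis) against Rtel1f/f Ad-GFP (grey circles), against RTEL1 CA Ad-GFP (blue squares), both with 95% intervals, and against Rtel1f/f Ad-GFP after a GC correction of each library (purple diamonds, no interval drawn). *Tbx15* lies between -0.48 and -0.38 in all 3, while *Twist1* is at -0.52, 0.03 and 0.05.

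The base composition of the transcripts moved with some of these results. *Prrx2* and *Twist1* transcripts are GC-rich, at 62.2% and 59.3% GC (the 98.5th and 93.8th percentile of the genes tested), *Prrx1* transcripts are GC-poor at 44.0% (13.7th percentile), and *Tbx15* and *Tbx18* are near the median of 50.8%, at 52.6% and 53.2%. The smooth trend of expression with GC content, fitted within each library and read at the GC content of *Prrx2*, was 0.48 to 0.58 above the mean library (log2) in the 3 Rtel1f/f Ad-GFP libraries, and -0.87 to -0.89 in replicate 2 of Rtel1f/f Ad-Cre, RTEL1 CA Ad-GFP and RTEL1 CA Ad-Cre. Those replicate 2 libraries were also the ones in which *Prrx2* was lowest in its group. With this trend removed, a step chosen after seeing the data, *Prrx2* was at -1.01 after *Rtel1* loss (adjusted p = 3.45e-06 by edgeR) and *Twist1* at 0.05 (adjusted p = 0.887 by edgeR). *Prrx1* was at -0.81 (adjusted p = 2.77e-09), *Tbx15* at -0.43 (adjusted p = 1.76e-05) and *Tbx18* at -0.28 (adjusted p = 0.0144 by edgeR). In RTEL1 CA Ad-GFP against Rtel1f/f Ad-GFP the corrected values were -0.99 for *Prrx1*, -0.49 for *Prrx2* (adjusted p = 0.00378 by edgeR) and 0.11 for *Twist1*. For the difference of Cre effects between Rtel1f/f and Trf1f/f *Twist1* was at 0.08. The sign of *Twist1* turned in each of these comparisons, but none of its corrected values was called. For TMPyP4 the corrected values were -0.72 for *Prrx1* (adjusted p = 5.16e-08), 0.04 for *Twist1* (adjusted p = 0.930) and -0.22 for *Prrx2* (adjusted p = 0.177 by edgeR). Over all fits that kept or changed the control, adjusted p after *Rtel1* loss ranged from 1.50e-05 to 0.995 for *Twist1*, from 2.30e-09 to 0.526 for *Prrx2*, from 1.42e-09 to 0.246 for *Prrx1* and from 4.64e-12 to 0.000965 for *Tbx15*.

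In RTEL1 CA cells Ad-Cre was compared with Ad-GFP, where 1.09% of genes were called, and no member was called by edgeR or by DESeq2. At an unadjusted p under 0.05, 2 of the 6 members passed, both lower, against 14.2% of all genes and 6.31% as lower. *Prrx1* had 91.4, 110 and 103 CPM with Ad-Cre, all below the 116 to 125 CPM of Ad-GFP (log2 fold change -0.25, SE 0.0851, adjusted p = 0.135 by edgeR), and *Twist1* had 26.9, 30.8 and 30.3 CPM, all below the 32.8 to 36.0 CPM of Ad-GFP (log2 fold change -0.22, SE 0.0942, adjusted p = 0.287 by edgeR). Such a separation with lower Ad-Cre libraries was found for 7.15% of all genes. *Prrx2*, with 24.6, 13.1 and 22.6 CPM, overlapped Ad-GFP as a group, as did *Twist2*, *Tbx15* and *Tbx18*. Replicate numbers pair these libraries, and within all 3 pairs each of the 6 members was lower with Ad-Cre, *Prrx2* by log2 differences of -0.33, -0.34 and -0.34 and *Tbx15* by -0.07, -0.06 and -0.08. The share of all genes that were lower in all 3 pairs was not counted, and the members share these libraries. The pairs are thus a description and not a result about the members. With the replicate as a block no member was called either. With the block and the GC correction together *Prrx1* was called at -0.26 (adjusted p = 0.00897 by edgeR, range over all fits from 0.00897 to 0.382).

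In Trf1f/f cells Ad-Cre was compared with Ad-GFP, where 3.42% of genes were called, and no member was called by edgeR. *Tbx18* was the one member at an unadjusted p under 0.05, which 17.3% of all genes reached, 8.65% as lower. It had 15.2, 17.5 and 16.1 CPM with Ad-Cre and 21.1, 19.97 and 19.97 CPM with Ad-GFP. These groups did not overlap, nor did those of 13.8% of all genes with lower Ad-Cre libraries, and the log2 fold change of -0.32 (SE 0.0731) missed the threshold narrowly (adjusted p = 0.01003 by edgeR, from 0.00200 to 0.137 over all fits), while DESeq2 called it. *Prrx1* had 650, 688 and 564 CPM with Ad-Cre and 643, 663 and 707 CPM with Ad-GFP, and *Twist1*, *Twist2*, *Prrx2* and *Tbx15* overlapped between the groups in the same way. *Six2*, tested here on its low counts, was at 0.52 with a 95% interval of -0.21 to 1.25 and was not called.

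Whether Cre acted differently in the lines was tested as a contrast of its own. The effect in Rtel1f/f minus that in RTEL1 CA cells was called for 25.1% of genes and for 1 of the 6 members. This was *Tbx15*, at -0.41 (SE 0.0759, adjusted p = 0.000396 by edgeR), which fell with Ad-Cre in Rtel1f/f cells and had a log2 fold change of -0.07 in RTEL1 CA cells. *Prrx2* (-1.35, SE 0.411, adjusted p = 0.0164), *Tbx18* (-0.32, adjusted p = 0.0210) and *Prrx1* (-0.36, adjusted p = 0.0253 by edgeR) did not pass. The gap between the Ad-GFP groups enters this contrast as much as the gap after Cre. For *Prrx2* RTEL1 CA was at -1.32 against Rtel1f/f with Ad-GFP and at 0.02 with Ad-Cre. These values were -0.31 and 0.00 for *Tbx18*, -0.77 and -0.42 for *Prrx1*, and -0.10 and 0.31 for *Tbx15*. The contrast cannot tell an effect of Cre from a difference between the Ad-GFP groups. Replicate numbers pair the RTEL1 CA libraries but not the Rtel1f/f libraries of this contrast, and with the replicate as a block all 3 passed, at -1.42 for *Prrx2* (adjusted p = 0.00251), -0.32 for *Tbx18* (adjusted p = 0.00598) and -0.36 for *Prrx1* (adjusted p = 0.00554 by edgeR). With 1 library left out, each of these 3 failed to pass in 11 of 12 fits. The fit that passed was without RTEL1 CA Ad-Cre replicate 1 for *Prrx1*, without RTEL1 CA Ad-Cre replicate 2 for *Prrx2* and without Rtel1f/f Ad-Cre replicate 2 for *Tbx18* (adjusted p of 0.00998, 0.00509 and 0.00924 by edgeR, within ranges over all fits from 3.87e-05 to 0.152, from 0.000132 to 0.0493 and from 0.00598 to 0.175). Against the effect in Trf1f/f cells, which was called for 30.2% of genes and as lower for 14.5%, 4 members differed, all lower in Rtel1f/f. They were *Prrx2* (-1.89, SE 0.411, adjusted p = 0.00148), *Twist1* (-0.63, SE 0.132, adjusted p = 0.000936), *Prrx1* (-0.53, SE 0.120, adjusted p = 0.00179) and *Tbx15* (-0.44, SE 0.0760, adjusted p = 0.000166 by edgeR). With the GC correction described above the *Prrx2* difference was nearer to 0, at -1.01 (adjusted p = 0.000249 by edgeR). *Prrx1* lost this call in 6 of the 12 fits that left out 1 library (Rtel1f/f Ad-Cre replicate 3, Rtel1f/f Ad-GFP replicates 2 and 3, Trf1f/f Ad-Cre replicates 1 and 2, and Trf1f/f Ad-GFP replicate 2), with adjusted p between 0.0101 and 0.0191 by edgeR (range over all fits from 5.87e-07 to 0.0191). *Tbx18* did not differ beyond its error (-0.03, 95% interval -0.25 to 0.19). The time after infection was not given for Trf1f/f cells, so the effects set against each other may come from unlike times.

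After Cre, RTEL1 CA cells were compared with Rtel1f/f cells, where 4.30% of genes were called and 2 of the 6 members were. *Prrx1* was lower with RTEL1 CA (log2 fold change -0.42, SE 0.0852, adjusted p = 0.00381) and *Tbx15* was higher (0.31, SE 0.0538, adjusted p = 0.000885 by edgeR). Both sets of libraries were apart, with 91.4 to 110 CPM against 128 to 146 CPM for *Prrx1* and 75.0 to 80.9 CPM against 60.4 to 65.1 CPM for *Tbx15*, as were those of 17.0% of all genes. *Prrx1* lost its call without RTEL1 CA Ad-Cre replicate 1 or 3 or Rtel1f/f Ad-Cre replicate 2 or 3 (adjusted p between 0.0241 and 0.0604 by edgeR, range over all fits from 4.30e-05 to 0.0754), and *Tbx15* without RTEL1 CA Ad-Cre replicate 2 or Rtel1f/f Ad-Cre replicate 3 (0.0176 and 0.0231, range from 4.95e-05 to 0.129).

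Among the 6 expressed members the lines themselves were furthest apart in *Prrx1*. Trf1f/f Ad-GFP libraries had 643, 663 and 707 CPM and Rtel1f/f Ad-GFP libraries 189, 225 and 204 CPM, 3.25-fold (log2 fold change 1.70, SE 0.0870, adjusted p = 7.05e-12 by edgeR). In this comparison 54.9% of all genes were called, 30.3% as higher and 24.5% as lower. *Twist2* was lower in Trf1f/f, with 33.9, 26.0 and 23.1 CPM (log2 fold change -0.78, SE 0.181, adjusted p = 0.00106 by edgeR), as were *Tbx18* (-0.47, SE 0.0725, adjusted p = 1.62e-05) and *Tbx15* (-0.18, SE 0.0536, adjusted p = 0.00602 by edgeR). *Tbx15* lost its call without Rtel1f/f Ad-GFP replicate 2 or 3 or Trf1f/f Ad-GFP replicate 1 or 2 (adjusted p between 0.0253 and 0.0621 by edgeR, range over all fits from 0.00272 to 0.0621). *Prrx2* (-0.91, adjusted p = 0.0112) and *Twist1* (0.18, adjusted p = 0.0995 by edgeR) were not called. *Six2* was at least 14.7-fold higher in Trf1f/f Ad-GFP than the limit of 3 counts over the Rtel1f/f Ad-GFP group, a member that passed the filter on low counts only through the Trf1f/f libraries. Per the study's methods the Rtel1f/f line came from earlier work and the floxed *Terf1* line was made for the study. Their age and strain were not given in the sources used here, and the line and its preparation cannot be told apart.

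**Figure D4:**
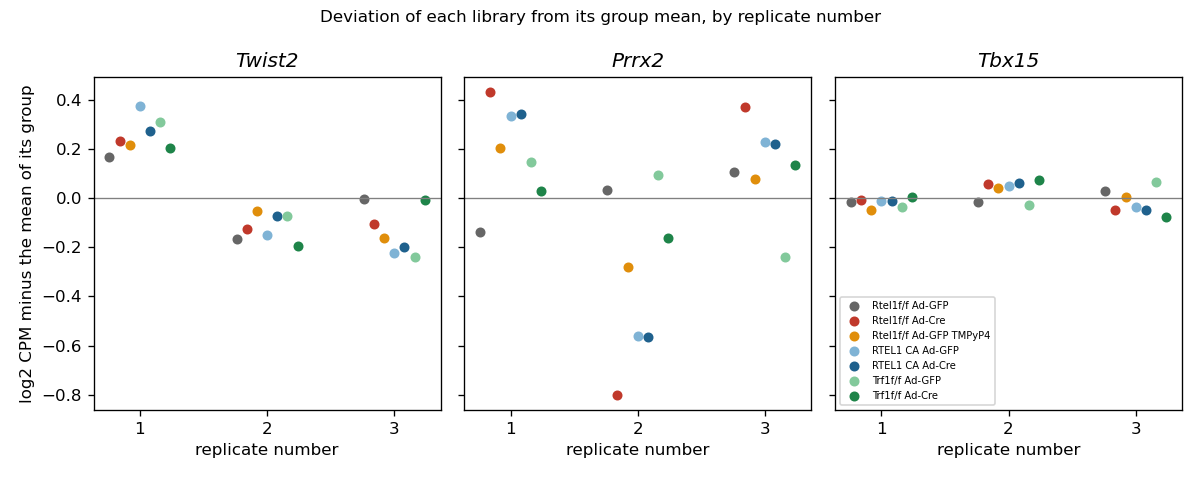
Deviation of each library's log2 CPM from the mean of its group (vertical axis), by replicate number (horizontal axis), for *Twist2*, *Prrx2* and *Tbx15*, coloured by group. Replicate 1 of *Twist2* lies above 0 in all 7 groups, replicate 2 of *Prrx2* is at -0.80, -0.56 and -0.56 in Rtel1f/f Ad-Cre and both RTEL1 CA groups, and *Tbx15* stays within 0.08 of 0.

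Libraries of the same number deviated together for some members. *Twist2* was highest in replicate 1 in each of the 7 groups, by 0.17 to 0.37 above its group mean (log2). *Prrx2* was lowest in replicate 2 in 5 groups, and its deviation there ranged from -0.80 in Rtel1f/f Ad-Cre to -0.16 in Trf1f/f Ad-Cre, while replicate 2 of Rtel1f/f Ad-GFP was at 0.03. *Tbx15* deviated by at most 0.08 in any library.

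Genes of the same pathways were counted from lists that were chosen beside the members. The 7 E proteins and Id proteins are the partners and the inhibitors of TWIST. After *Rtel1* loss 4 of 7 fell and 0 rose (median log2 fold change -0.81), led by *Id3* (-2.97, SE 0.407, adjusted p = 1.21e-05) and *Id1* (-1.58, SE 0.351, adjusted p = 0.00109 by edgeR), inhibitors that bind E proteins in place of TWIST and are targets of BMP signaling. *Id3* went from 105 ± 40.9 CPM to 13.4 ± 6.18 CPM (SD, n = 3) and was at 10.8 ± 3.21 CPM in RTEL1 CA Ad-GFP, where it was lower than in Rtel1f/f Ad-GFP as well (-3.29, adjusted p = 4.63e-06 by edgeR). With TMPyP4 4 of 7 fell too, with *Id3* at -1.92 and *Id1* at -1.79 (adjusted p = 0.000845 and 0.000736 by edgeR). Against RTEL1 CA Ad-GFP neither was called, and both turned, *Id3* to 0.32 and 1.36 and *Id1* to 0.36 and 0.16 after *Rtel1* loss and TMPyP4 (adjusted p between 0.0159 and 0.799 by edgeR). *Tcf4*, an E protein, fell after *Rtel1* loss (-0.90, adjusted p = 8.13e-10) and was called as lower against RTEL1 CA Ad-GFP as well (-0.38, adjusted p = 0.000109 by edgeR). With TMPyP4 it fell too (-0.32, adjusted p = 0.000217), but it turned to 0.20 against that control (adjusted p = 0.0135 by edgeR). *Tcf4* was also lower with Ad-Cre than with Ad-GFP in RTEL1 CA cells (-0.35, adjusted p = 0.00179) and in Trf1f/f cells (-0.27, adjusted p = 0.00538 by edgeR).

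Of the 4 repressors of epithelial genes (*Snai1*, *Snai2*, *Zeb1*, *Zeb2*), 1 fell after *Rtel1* loss, *Snai2* (-0.36, SE 0.0876, adjusted p = 0.00183), and 1 rose with TMPyP4, *Zeb2* (0.29, SE 0.0643, adjusted p = 0.00156 by edgeR). The median log2 fold changes of this list were -0.28 and 0.01, and against RTEL1 CA Ad-GFP these 2 values were -0.17 and 0.18 and were not called. Of 13 relatives of the T-box, SIX2 and MEOX2 members 9 were tested, and after *Rtel1* loss 1 rose and 2 fell. *Tbx20*, a T-box gene of the heart, rose by 1.00 (SE 0.101, adjusted p = 2.21e-07), and *Six5* and *Meox1* fell by 1.54 and 0.82 (adjusted p = 1.36e-05 and 0.00979 by edgeR). With TMPyP4 1 rose, again *Tbx20* (0.71, adjusted p = 2.88e-05), and 3 fell, among them *Meox1* (-1.07, adjusted p = 0.00268 by edgeR). Against RTEL1 CA Ad-GFP *Tbx20* was called as lower instead, at -0.66 after *Rtel1* loss and -0.96 with TMPyP4 (adjusted p = 9.80e-05 and 1.08e-06 by edgeR). *Meox1* turned to 1.05 and 0.79 against that control (adjusted p = 0.0227 and 0.0584) and *Six5* was at -0.30 after *Rtel1* loss (adjusted p = 0.475 by edgeR), none of them called. *Tbx20* was also higher in Trf1f/f Ad-Cre than in Trf1f/f Ad-GFP (0.73, SE 0.0916, adjusted p = 3.75e-05 by edgeR), and *Meox1* was lower there (-1.38, SE 0.236, adjusted p = 0.000919 by edgeR). In the comparison of lines 7 of 9 relatives were higher in Trf1f/f, against 30.3% of all genes. This count is not a result about the list, because relatives near 0 in Rtel1f/f cells could pass the filter on low counts only through Trf1f/f. *Tbx1* was such a gene, with a mean of 0.0143 CPM in Rtel1f/f Ad-GFP and 1.52 CPM in Trf1f/f Ad-GFP. *Tbx5*, a T-box gene of the forelimb, had 15.0 ± 0.456 CPM (SD, n = 3) in Trf1f/f Ad-GFP and at most 0.0200 CPM in any Rtel1f/f Ad-GFP library.

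The 6 EYA and DACH genes encode cofactors of SIX2 and its relatives. After *Rtel1* loss 3 fell and 0 rose, and with TMPyP4 2 fell and 0 rose. *Eya1* went from 47.8 ± 12.8 CPM in Rtel1f/f Ad-GFP to 13.5 ± 1.63 CPM in Ad-Cre (-1.83, SE 0.148, adjusted p = 1.59e-08) and 19.1 ± 1.48 CPM with TMPyP4 (-1.32, SE 0.145, adjusted p = 2.06e-06 by edgeR), and was at 12.03 ± 1.04 CPM in RTEL1 CA Ad-GFP. Against this last group it turned to 0.16 after *Rtel1* loss (adjusted p = 0.579) and was called as higher with TMPyP4 (0.67, adjusted p = 0.00223 by edgeR). Of 27 other mesenchymal transcription factors 22 were tested, and after *Rtel1* loss 11 fell and 1 rose (median log2 fold change -0.48), while with TMPyP4 8 fell and 1 rose (median -0.30). Against RTEL1 CA Ad-GFP 3 were lower and 0 higher after *Rtel1* loss, where 7.76% of all genes were called. Of the 12 that fell or rose, 4 changed direction there. With TMPyP4 3 were lower and 5 higher against that control (17.0% of all genes called), and 5 of 9 changed direction. *Msx2*, a homeobox gene of limb and skull mesenchyme, was the gene that rose after *Rtel1* loss (0.36, SE 0.0853, adjusted p = 0.00162 by edgeR), and it was at -0.19 against RTEL1 CA Ad-GFP (adjusted p = 0.168 by edgeR). *Sox9*, a regulator of cartilage, fell with TMPyP4 from 22.0 ± 1.67 to 6.88 ± 0.632 CPM (-1.68, SE 0.156, adjusted p = 3.30e-07 by edgeR) and was lower against RTEL1 CA Ad-GFP as well (-0.75, adjusted p = 0.00145 by edgeR). In Trf1f/f Ad-GFP the homeobox genes *Alx1* and *Msx1* had 13.6 ± 0.629 and 6.41 ± 0.990 CPM, and both had 0 counts in Rtel1f/f Ad-GFP. They were named as the largest rises of this list between the lines. Genes near 0 in Rtel1f/f cells could pass the filter on low counts only through Trf1f/f, so these levels are a description.

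Of 7 genes described as targets of TWIST1, PRRX1 or MEOX2, 3 fell and 2 rose after *Rtel1* loss, and 1 fell and 2 rose with TMPyP4. *Cdh2*, which encodes N-cadherin, rose from 51.2 ± 10.2 CPM to 188 ± 9.09 CPM after *Rtel1* loss (1.88, SE 0.0991, adjusted p = 8.89e-11) and to 157 ± 2.18 CPM with TMPyP4 (1.62, adjusted p = 3.08e-09 by edgeR), and was at 169 ± 6.62 CPM in RTEL1 CA Ad-GFP. Against that group it was at 0.16 and -0.10 and was not called (adjusted p = 0.353 and 0.462 by edgeR). *Cdkn1a*, the p53-responsive inhibitor of the cell cycle, rose in Rtel1f/f Ad-Cre (1.22), with TMPyP4 (0.84), and with Ad-Cre in RTEL1 CA (0.62) and Trf1f/f cells (0.77), with adjusted p between 1.60e-11 and 6.08e-06 by edgeR, and against RTEL1 CA Ad-GFP it was called as higher in the first 2 as well (0.89 and 0.52). *Pdgfra*, a receptor of mesenchymal cells, fell after *Rtel1* loss (-0.82) and with TMPyP4 (-1.34, adjusted p = 7.66e-07 and 1.32e-08 by edgeR), but against RTEL1 CA Ad-GFP it was called as higher after *Rtel1* loss (0.79, adjusted p = 8.57e-06) and was at 0.27 with TMPyP4 (adjusted p = 0.0343 by edgeR). *Postn*, which encodes the matrix protein periostin, fell after *Rtel1* loss (-1.25, SE 0.187, adjusted p = 2.22e-05 by edgeR) and was at 0.50 against RTEL1 CA Ad-GFP (adjusted p = 0.120 by edgeR). It had 2185 ± 127 CPM in Trf1f/f Ad-GFP against 10.7 ± 2.14 CPM in Rtel1f/f Ad-GFP (SD, n = 3). The counts of all 6 lists have to be read against the 21% of all genes that fell and 22.0% that rose after *Rtel1* loss, and the 13.4% that fell and 16.6% that rose with TMPyP4.

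Genes with a like pattern were sought for the tested members whose group means spanned more than 1 (log2) over the 7 groups, by the root mean square difference of centred group means over 11834 genes averaging 1 CPM or more, the 2 nearest being named. For *Twist1* these were *Zfyve21* (0.0397) and *Rabep2* (0.0521), where the median over all genes was 0.474. For *Prrx1* they were *Nuak1* (0.106) and *Rasl11b* (0.143, median 1.09), and for *Prrx2* they were *Rabac1* (0.0921) and *Six5* (0.126, median 0.659). *Six2* also spanned more than 1, but it was at 0 counts in the 5 Rtel1f/f groups, where its log2 value is set by the prior count, so no gene is named for it. The likeness is over 7 group means that share libraries and depth, and is a description.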

How the data were processed

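PolyA RNA of MEFs was sequenced in 21 libraries (7 groups of 3, from the labels). Per the submitters' processing notes and the study's methods, the authors used cutadapt 1.9.1 for trimming and STAR 2.5.2a for alignment, obtained strand-aware expected counts per gene from RSEM 1.3.0 on mm10 RefSeq genes, and ran DESeq2 for their own comparisons (1.28.0 per the notes, while the methods name a later release). The deposited expected counts were all whole numbers, so no rounding was needed. The deposited TPM values, computed by the authors with RSEM, were used only to compare genes. Labels and methods differ in read length, serum and sequencer.

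Counts were fitted in edgeR 4.0.16 (R 4.3.3, limma 3.58.1) by the robust quasi-likelihood method, with TMM scaling, filterByExpr by group (13719 of 24454 genes), 1 coefficient per group over all 21 libraries (14 residual degrees of freedom) and Benjamini-Hochberg adjustment over all genes tested. Genes were called at an adjusted p of 0.01 or less, which is the study's own threshold. All 10 comparisons were fitted, and those with Rtel1f/f Ad-GFP share its libraries. No 2 libraries were duplicates (at most 19.7% of genes had identical counts). Every member is named. Of 13 other lists (6 of related factors and targets, 7 of cell type markers) called genes were counted, and at most 2 per direction named, apart from *Tcf4*. Members and lists were chosen with earlier results of these data known.

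Same-numbered libraries were taken as paired where all 3 correlations of their deviations from group means, over 11840 genes, exceeded 0.1. This held for Rtel1f/f Ad-Cre with TMPyP4 (0.724, 0.758 and 0.409) and for the RTEL1 CA groups (0.864, 0.839 and 0.424). Other settings were a fit in DESeq2 1.42.0, edgeR scaled by DESeq2 size factors, omission of the filter, only the groups compared, a replicate block, a threshold of 0.05, RTEL1 CA Ad-GFP as control, each library left out and, added after seeing the data, a GC correction (loess, span 0.3) with and without the block and the RTEL1 CA control for genes of the other lists. Sequences and coordinates are from RefSeq on GRCm38.p6, while gene strands, overlapping genes and the GC content of transcripts are from GENCODE.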

Additional observations from a re-analysis of the deposited data

Results flagged for a closer look

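The log2 fold change of Ad-Cre against Ad-GFP differed between lines for some members, by the test of the difference itself in edgeR. This test cannot tell an effect of Cre from a difference between the Ad-GFP groups of the lines. Between Rtel1f/f and RTEL1 CA cells *Tbx15* differed by -0.41 (log2 fold change in Rtel1f/f minus that in RTEL1 CA), with log2 fold changes of -0.48 and -0.07. Between Rtel1f/f and Trf1f/f cells *Prrx2* differed by -1.89 (log2 fold changes of -1.68 and 0.20), *Twist1* by -0.63 (-0.52 and 0.11), *Prrx1* by -0.53 (-0.61 and -0.08) and *Tbx15* by -0.44 (-0.48 and -0.04). *Twist1* was at 0.08 in the last comparison after the GC correction, and *Prrx2* was at -1.01, nearer to 0 than as reported, while the *Prrx2*, *Prrx1* and *Tbx15* differences kept their direction and their call.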

How the results depend on the processing

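Over the planned and added settings, 363 of 439 values kept direction and side of the threshold, 16 lost a call, 32 gained one, and 28 changed sign, 12 of them called values. With 1 library left out the counts were 387, 28, 3 and 20 of 438, and 0 called values changed sign. Members called were 1 with DESeq2, the replicate block, a threshold of 0.05 and GC correction with block for Trf1f/f Ad-Cre (0 as reported). For Rtel1f/f minus RTEL1 CA they were 2 with DESeq2, 4 with the block, 4 at 0.05, and 3 with GC correction alone and with block (1 as reported). For TMPyP4 they were 1 without filter, 5 with the block, 4 at 0.05, 1 with the RTEL1 CA control and 1 with GC correction (2 as reported). With only the groups compared, 0 were called for Rtel1f/f Ad-Cre against TMPyP4 and for RTEL1 CA Ad-Cre against Rtel1f/f Ad-Cre (2 each as reported). For Rtel1f/f Ad-Cre 1 was called with the RTEL1 CA control and 3 with GC correction (5 as reported), for RTEL1 CA Ad-GFP 2 with GC correction (4 as reported), and for RTEL1 CA Ad-Cre 1 with GC correction and block (0 as reported). The replicate numbers of Rtel1f/f Ad-Cre and Ad-GFP pair no libraries by their correlations (-0.0172, 0.0580 and 0.131). The block added *Twist2* there, and *Twist2*, *Prrx2* and *Tbx15* for TMPyP4. Among the paired groups it added *Prrx2* for Rtel1f/f Ad-Cre against TMPyP4 and changed no other call between the groups of a pair.

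With the RTEL1 CA control, log2 fold changes turned to 0.0254 for *Twist1* and 0.166 for *Prrx1* in Rtel1f/f Ad-Cre, and to 0.200 for *Twist1*, 0.249 for *Prrx1* and 0.575 for *Prrx2* with TMPyP4. With GC correction *Twist1* turned to 0.0524 (Rtel1f/f Ad-Cre), 0.0364 (TMPyP4), 0.0159 (Ad-Cre against TMPyP4), -0.0241 (Trf1f/f Ad-Cre), 0.254 (minus RTEL1 CA), 0.0765 (minus Trf1f/f) and 0.105 (RTEL1 CA Ad-GFP). *Prrx2* turned to -0.00135 (Trf1f/f Ad-Cre), *Tbx18* to 0.0549 (minus Trf1f/f) and *Twist2* to 0.158 (RTEL1 CA Ad-GFP). With the block as well, *Twist1* was at 0.00300, 0.00966, -0.0297, 0.204, 0.0327 and 0.0620 in the same order without Ad-Cre against TMPyP4, *Tbx18* at 0.0558 and *Twist2* at 0.148. In RTEL1 CA Ad-Cre against Rtel1f/f Ad-Cre, where it was near 0, *Tbx18* turned to -0.000699 (DESeq2), -0.00388 (no filter), -0.0190 (only the groups compared) and -0.00215 (GC correction), and *Prrx2* to -0.00181 (only the groups compared). The causes of these turns were not tested.

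With 1 library left out, members called ranged from 1 to 2 (minus RTEL1 CA), 3 to 4 (minus Trf1f/f), 0 to 2 (RTEL1 CA Ad-Cre against Rtel1f/f Ad-Cre), 3 to 4 (RTEL1 CA Ad-GFP), 4 to 5 (Rtel1f/f Ad-Cre), 0 to 2 (Ad-Cre against TMPyP4), 1 to 2 (TMPyP4) and 4 to 5 (Trf1f/f Ad-GFP, with *Six2*). *Six2* passed the filter on low counts only through the Trf1f/f libraries, so its part in the last count is not a result. Log2 fold changes that changed sign, none of them called, ranged from -0.248 to 0.253 (*Prrx2*) and -0.0564 to 0.107 (*Tbx18*) in RTEL1 CA Ad-Cre against Rtel1f/f Ad-Cre, and for *Twist2* from -0.317 to 0.0285 (RTEL1 CA Ad-Cre), -0.219 to 0.0869 (RTEL1 CA Ad-GFP), -0.0596 to 0.181 (Ad-Cre against TMPyP4) and -0.0801 to 0.210 (Trf1f/f Ad-Cre). They ranged from -0.111 to 0.0527 for *Tbx18* (minus Trf1f/f) and from -0.0109 to 0.221 for *Twist1* (Trf1f/f Ad-Cre). Depth limited *Six2* and *Meox2*, at 24 counts or fewer per library.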
